A study of Mus musculus with 8 samples.

Results

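Kinesins are the motor proteins that walk along microtubules, and 41 kinesin genes were measured in plasmacytoid dendritic cells (pDC), the dendritic cells that make type I interferon after sensing nucleic acids. The family was chosen with earlier results of these data known. Its genes were taken by name among the non-control probes, as Kif and a number with or without a letter, or Kifc and a number. They were represented by 59 probes, and each of the 13 genes with over 1 probe was read from the probe with the highest mean signal over the 8 arrays. Of 36095 features on the arrays, 19818 were well above background on at least 4 arrays and were tested, and 32 of the 41 kinesins were among these.

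Bone marrow cells of female BALB/c mice were differentiated in culture with mouse Flt3 ligand (mFlt3-L), the growth factor that drives pDC development. pDC were then sorted with magnets and by flow cytometry into cells without the surface protein Sca-1 (Sca-1-, 4 samples) and cells with it (Sca-1+, 4 samples). Both groups share the strain, sex, culture and growth factor, and neither carries an allele or a further agent in the labels. The labels' genotype field holds the sort itself, and nothing says that the replicates came from separate animals or cultures, so the p-values cover the variation among these arrays only, some or all of which may be technical. Ly6a, the gene of Sca-1, was 25.1-fold higher in Sca-1+ samples, which checks the sort. The series' title asks whether Sca-1 separates developmental stages of pDC, and the arrays compare both sorted populations.

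Of the non-control spots, 45.9% to 54.9% were well above background on an array, and the number of arrays limits the precision. The median difference of all tested genes was 0.03 (log2). The 12 pDC markers were above background, and their summed signal was 2002 to 2826 in Sca-1- and 2324 to 2982 in Sca-1+ samples, in multiples of the 75th percentile of the array. The summed signal of 11 progenitor markers was 85.3 to 108 in Sca-1- and 59.6 to 81.0 in Sca-1+ samples, with no overlap. Of the 11, 2 passed the test, Cd93 (-1.98, limma adjusted p = 0.00503) and Sox4 (-1.19, adjusted p = 0.0155), against 1.58% of all tested genes that passed as lower. The 11 differences had a median of -0.40, with 10 below 0 and 1, Hoxa9 (0.21), above. Flt3 (-0.21) and Csf1r (-1.19, adjusted p = 0.171), with the highest signal of the list, did not pass. Mpo, Gata2 and Meis1 differed by -0.10, -0.14 and -0.04. The 9 conventional dendritic cell markers summed to 97.0 to 114 against 96.0 to 111, a sum in which Itgax (-0.21) weighs most. Of the 7 tested, 4 differences were above 0 and 3 below, from -1.20 (Zbtb46) to 1.00 (Cd209a). Batf3 and Xcr1 were not tested, so the similar sums do not show that each marker was unchanged. Of the 9 B cell markers Cd79a, Cd79b, Blk and Vpreb1 were well above background on all 8 arrays, and Pax5, Ms4a1 and Igll1 on none, with a sum of 5.60 to 7.80 against 6.81 to 7.85. Of the 9 T and NK cell markers Cd3e and Lck were well above background on all 8 arrays, and Cd3d, Cd3g, Ncr1, Klrb1c and Il2rb on none, with a sum of 2.79 to 7.44 against 2.70 to 8.07. The monocyte and granulocyte markers summed to 139 to 302 against 169 to 310. Of the 6 basophil and mast cell markers Cpa3, Mcpt8, Fcer1a and Prss34 were well above background on at least 4 arrays, and Ms4a2 on none. The 6 summed to 0.391 to 17.6 against 0.351 to 22.1. The erythroid markers summed to 22.5 to 32.9 against 15.6 to 27.8. Apart from Cd93 and Sox4, no tested member of these lists passed. With the slide as a block, 2 pDC markers (Ccr9, Tlr7) and 2 conventional dendritic cell markers (Itgae, Sirpa) passed as higher, against 2.1% of all tested genes. As lower passed Zbtb46, 3 progenitor markers (Cd93, Sox4, Csf1r) and 1 monocyte and granulocyte marker, against 4.12%. Replicates 1 to 4 of both groups lay on slides 1 to 4. The first array position of each slide held Sca-1- RNA and the second held Sca-1+ RNA, so position and group cannot be told apart.

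Kinesins use ATP to move along microtubules or to take them apart. One group builds and drives the spindle of a dividing cell: these mitotic kinesins slide spindle microtubules, push on chromosome arms, shorten microtubule ends or organise the midzone at which the daughter cells separate, and most are made in late S phase, G2 and mitosis and degraded afterwards. Another group carries vesicles, mitochondria and protein complexes through the cytoplasm of dividing and resting cells alike, often through adaptors such as kinesin light chains. By textbook role 13 of the 41 genes were classed as mitotic, 17 as transport and 11 as other kinesins. The microtubule depolymerase Kif2a was classed as other, so counts of the mitotic class leave it out. The classes were set with earlier results of these data known, so their contrast is not independent evidence of its direction.

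In Sca-1+ pDC the mitotic kinesins were lower and the transport kinesins did not pass the test in either direction. A gene passed, or was called, at a limma adjusted p under 0.05 over all tested genes. Of 11 mitotic kinesins tested, 10 fell and 0 rose, against 1.58% of all tested genes called lower, and their median difference was -2.06 (log2, Sca-1+ minus Sca-1-). Of 15 transport kinesins tested, 0 passed, against 1.71% of all tested genes called in either direction, so this count is near the background. In the same limma fit 0 of the 15 had an unadjusted p under 0.05, against 1776 of all 19818 tested genes. Their median difference was 0.13. The mitotic median minus the transport median was -2.19, and it was -2.47, -2.09, -2.40 and -1.85 within slides 1 to 4. In the tested mitotic class the groups did not overlap for any gene, whereas 5.03% of all tested genes had a lower Sca-1+ group without overlap. The groups were apart for 0 of the 15 transport kinesins, which is near the 6.94% of all tested genes apart in either direction. Over all 32 tested kinesins the groups did not overlap for 13, against 6.94% of all tested genes in either direction, and 12 passed with the slide as a block, against 6.22%. In bulk samples such as these, fewer cells of a type and less RNA per cell cannot be told apart. The lower summed progenitor marker signal given above, with 2 of its 11 markers called, moved with the mitotic fall. The part of this signal in the result was not tested.

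**Figure D1:**
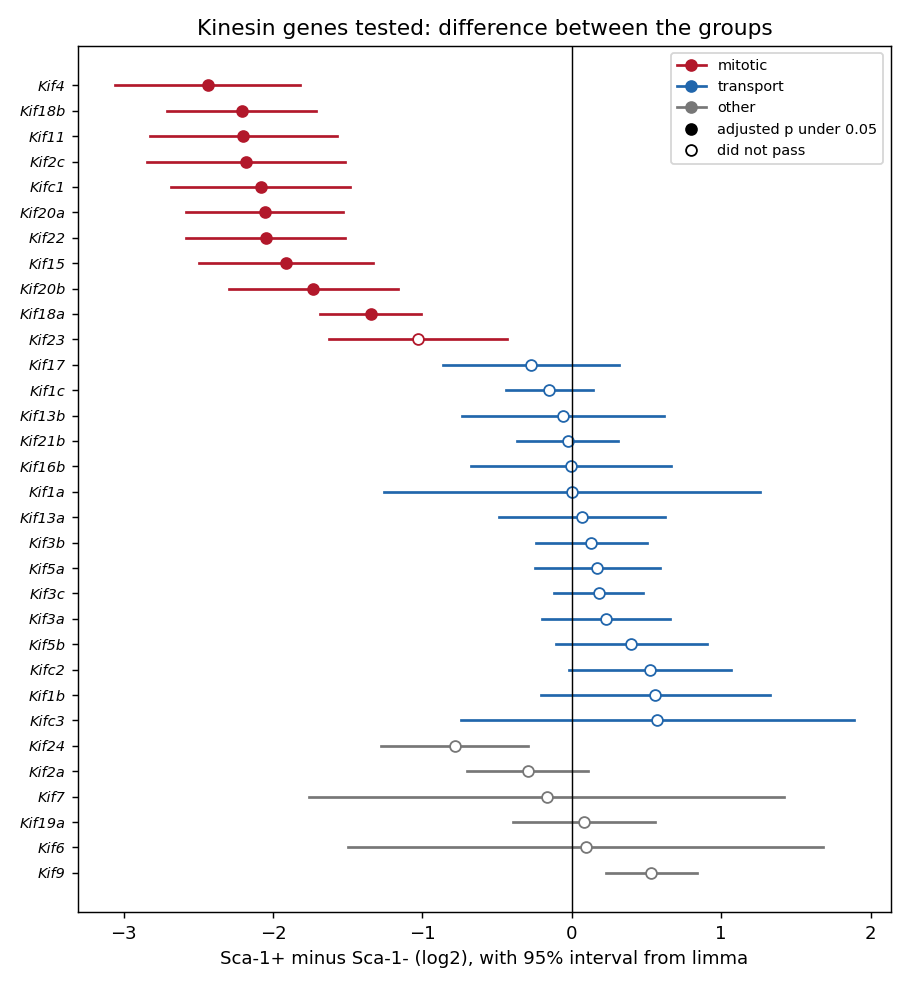
Log2 difference (Sca-1+ minus Sca-1-) of each tested kinesin, with the 95% interval from limma, in red for mitotic, blue for transport and grey for other kinesins, filled where the adjusted p was under 0.05. The intervals of the 10 called mitotic kinesins end at or below -1.01, and those of 14 of the 15 transport kinesins lie above all of them.

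Promoters of 8 mitotic kinesins are shown because these 8, of 12 with an entry, hold a short motif near the start site that the name rule did not use. The cell cycle genes homology region (CHR) is an element of late cell cycle genes whose core is TTTGAA, and the CCAAT box is an upstream element bound by NF-Y. Both were searched on both strands, so that the CHR core also reads TTCAAA and the CCAAT box also reads ATTGG. The windows come from RefSeq (build GRCm38.p6) and run from 250 bases before to 50 after the start site, and 32 of the 41 kinesins had an entry. In the sequences below, 75 bases before and 25 after the start are printed in the direction of transcription, with matches to either motif in capitals.
Kif11, chr19:37376307-37376406, plus strand: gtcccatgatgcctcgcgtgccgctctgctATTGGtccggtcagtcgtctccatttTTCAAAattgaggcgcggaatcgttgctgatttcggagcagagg
Kif15, chr9:122951006-122951105, plus strand: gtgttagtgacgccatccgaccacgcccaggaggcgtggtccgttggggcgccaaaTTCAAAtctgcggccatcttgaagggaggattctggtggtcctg
Kif22, chr7:127042396-127042495, minus strand: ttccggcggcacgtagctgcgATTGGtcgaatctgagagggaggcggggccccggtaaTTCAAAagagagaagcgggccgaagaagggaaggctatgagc
Kif18b, chr11:102925100-102925199, minus strand: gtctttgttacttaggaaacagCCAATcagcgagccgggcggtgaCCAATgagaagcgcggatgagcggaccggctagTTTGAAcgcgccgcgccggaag
Kif23, chr9:61946775-61946874, minus strand: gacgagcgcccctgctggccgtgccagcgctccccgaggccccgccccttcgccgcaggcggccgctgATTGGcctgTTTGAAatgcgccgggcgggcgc
Kifc1, chr17:33890609-33890708, minus strand: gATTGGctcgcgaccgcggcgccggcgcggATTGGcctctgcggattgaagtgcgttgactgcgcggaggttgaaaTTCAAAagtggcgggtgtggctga
Kif20b, chr19:34922283-34922382, plus strand: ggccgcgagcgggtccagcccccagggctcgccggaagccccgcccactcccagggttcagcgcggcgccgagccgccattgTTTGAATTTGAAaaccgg
Kif4, chrX:100625990-100626089, plus strand: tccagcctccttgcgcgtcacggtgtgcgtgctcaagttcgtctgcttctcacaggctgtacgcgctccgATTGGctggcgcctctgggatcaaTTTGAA

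In these 8 promoters a CHR core lies within 30 bases of the start site, counting the first base of transcription as 1 and the base before it as -1. The first base of the match is at -19 in Kif11 and Kif15, at -17 in Kif22, at 2 in Kifc1, at 3 in Kif23, at 4 in Kif18b, at 20 in Kif4, and at 8 and 14 in Kif20b, where both copies join. This near window was set after the matches had been seen. It held a core in 8 of the 12 mitotic kinesins with an entry, in 0 of 11 transport kinesins and in 1 of 9 other kinesins, Kif26b, which was not above background on any array, against 3.39% of 27018 genes and 2.90% of 32841 windows. Over the whole window of 300 bases the core stood in 10 of 12 mitotic, 1 of 11 transport (Kif1a) and 2 of 9 other kinesins, against 20.2% of genes. The CCAAT box was in 8 of 12 mitotic, 3 of 11 transport and 4 of 9 other kinesins, against 41.1% of genes. A match is a description of letters and not of a bound site, and the printed promoters were compared with no data on binding.

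For contrast, the mitotic kinesin Kif18a holds neither motif in its window. The transport kinesins Kif3b and Kif1c have no CHR core, and Kif3b has a CCAAT box.
Kif18a, chr2:109280663-109280762, plus strand: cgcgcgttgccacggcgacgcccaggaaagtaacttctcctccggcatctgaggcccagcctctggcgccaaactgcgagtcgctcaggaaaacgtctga
Kif3b, chr2:153291341-153291440, plus strand: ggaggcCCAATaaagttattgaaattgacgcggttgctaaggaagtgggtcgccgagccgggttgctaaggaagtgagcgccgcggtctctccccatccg
Kif1c, chr11:70700473-70700572, plus strand: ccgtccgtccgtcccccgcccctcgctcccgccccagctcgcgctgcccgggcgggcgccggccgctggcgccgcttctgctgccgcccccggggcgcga

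**Figure D2:**
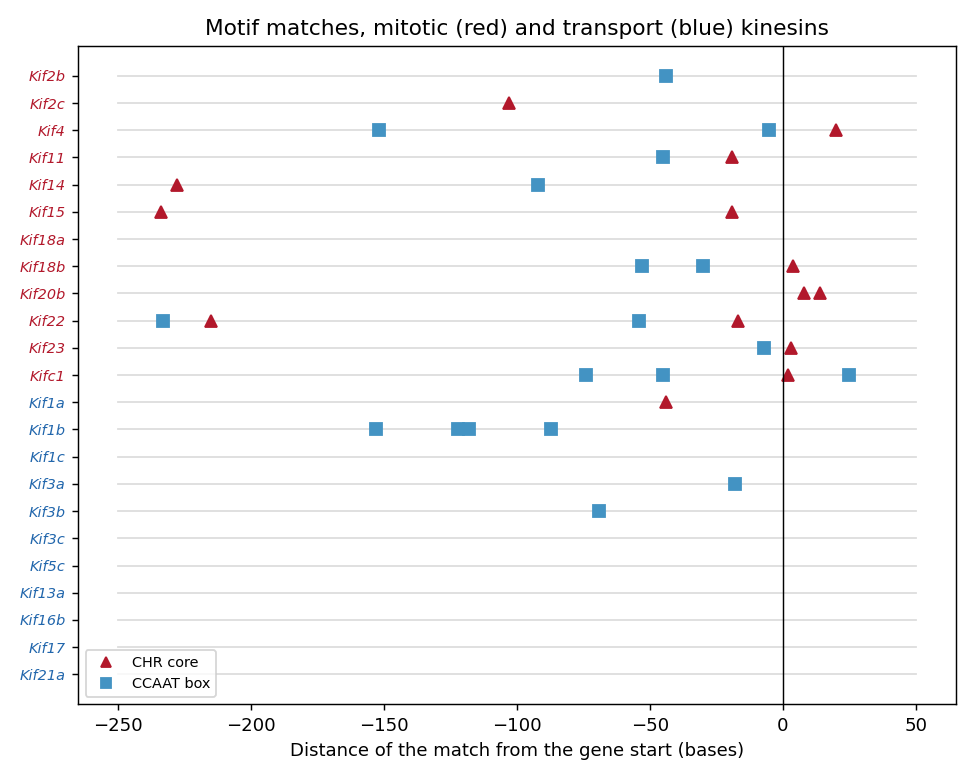
Distance in bases from the start site (0, vertical line) to the first base of each CHR core (triangles) and CCAAT box (squares), on either strand, for the 12 mitotic (red names) and 11 transport kinesins (blue names) with a promoter entry, with matches of both Kif1b windows on 1 line. Triangles lie within 30 bases of the start in 8 mitotic kinesins and in 0 transport kinesins, of which Kif1a alone holds a core, at -44.

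Levels below are log2 processed signals relative to the 75th percentile of the same array, listed in the order of replicates 1 to 4, and probe positions are on build mm9. Levels of different probes are not compared. Of 12 further kinesin probes well above background on at least 4 arrays, 10 had the sign of the probe used and 2, of Kif1c and Kif3b, had the opposite sign.

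The motors that separate and focus the spindle poles fell together. Kif11 (Eg5), the plus-end motor that pushes the poles apart (probe at chr19:37495755-37495814), had levels of 0.72, 0.57, -0.10 and -0.29 in Sca-1- and -1.56, -1.87, -2.35 and -2.12 in Sca-1+ samples. It was 4.59-fold lower in Sca-1+ samples (-2.20 ± 0.27 SE, limma adjusted p = 0.00663). Every Sca-1+ sample lay below every Sca-1- sample. Kif15, which can keep bipolar spindles in place when Kif11 is blocked (chr9:122927298-122927357), had levels of -1.12, -1.29, -1.27 and -1.04 against -3.56, -2.75, -3.54 and -2.52. Its fall was 3.76-fold (-1.91 ± 0.25 SE, adjusted p = 0.00817), and 3 of the 4 Sca-1+ arrays held it well above background. Kifc1 (HSET), a minus-end motor that focuses the poles (chr17:34018375-34018434), had levels of 1.82, 1.88, 0.98 and 0.96 against -0.36, -0.71, -0.64 and -0.98. It was 4.23-fold lower (-2.08 ± 0.26 SE, adjusted p = 0.00697). Its close copy Kifc5b is on the array under its own name and was read separately as a partner gene: -1.81, adjusted p = 0.107. Probes of copies this alike may share signal, and how far Kifc1 and Kifc5b were told apart was not tested.

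Motors of the chromosome arms also fell. Kif4, a chromokinesin that acts on chromosome structure and on the spindle midzone (chrX:97922085-97922145), had levels of 0.33, 0.0079, -0.40 and -0.31 in Sca-1- and -2.59, -2.03, -3.18 and -2.32 in Sca-1+ samples. Its difference of -2.44 ± 0.27 SE (5.41-fold, adjusted p = 0.0052) was the most negative of the tested kinesins. Kif22 (Kid), which pushes chromosome arms towards the spindle equator (chr7:134171255-134171314), had levels of 3.94, 3.94, 3.52 and 3.13 against 1.81, 1.86, 1.29 and 1.36, and fell 4.14-fold (-2.05 ± 0.23 SE, adjusted p = 0.00526). In both genes the lowest Sca-1- sample stood above the highest Sca-1+ sample.

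Of the kinesins classed as mitotic that shorten or cap microtubule ends, Kif2c, Kif18a and Kif18b fell. The depolymerase Kif2a, classed with the other kinesins, did not pass (-0.30, limma adjusted p = 0.798), and its groups overlapped. Kif2c (MCAK), which takes microtubules apart at kinetochores (chr4:116832904-116832963), had levels of -0.36, -0.74, -1.32 and -0.88 against -2.88, -2.66, -3.75 and -2.74 and was 4.54-fold lower (-2.18 ± 0.29 SE, adjusted p = 0.00817). Its second probe differed by -2.64, and 3 of 4 Sca-1+ arrays held the probe used well above background. Kif18b, which cuts back astral microtubules (chr11:102767246-102767305), had levels of -0.09, -0.32, -0.50 and -0.60 against -2.49, -2.44, -3.16 and -2.25 and was 4.62-fold lower (-2.21 ± 0.22 SE, adjusted p = 0.00503). Kif18a, which damps the swing of chromosomes at the equator (chr2:109181416-109181475), had levels of -1.30, -1.29, -1.76 and -1.24 against -2.72, -2.69, -2.73 and -2.84. Its difference, -1.35 ± 0.15 SE (2.54-fold, adjusted p = 0.0052), was the smallest among the called mitotic kinesins, and its Sca-1+ levels lay within a narrow band. With normexp background correction Kif18a no longer passed (-0.63, adjusted p = 0.116).

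Motors of the spindle midzone and of cell separation were lower too, with 1 that missed the threshold. Kif20a (MKLP2), which carries the chromosomal passenger complex to the midzone (chr18:34792251-34792310), had levels of 1.92, 1.91, 1.18 and 1.43 against -0.31, -0.09, -0.85 and -0.53 and was 4.16-fold lower (-2.06 ± 0.23 SE, adjusted p = 0.0052). Kif20b, a motor of late cytokinesis (chr19:35050047-35050106), had levels of 1.60, 1.58, 0.87 and 1.45 against -0.38, -0.48, -0.75 and 0.21 and was 3.31-fold lower (-1.73 ± 0.25 SE, adjusted p = 0.0113). Kif23 (MKLP1), a subunit of the centralspindlin complex that bundles midzone microtubules (chr9:61767492-61767732), had levels of 2.87, 2.33, 2.34 and 2.88 against 1.44, 1.32, 1.27 and 2.28. The groups did not overlap, but the Sca-1+ sample of replicate 4 stood apart from the other Sca-1+ samples and close to the lowest Sca-1- samples. Its difference was -1.03 ± 0.26 SE (95% interval -1.62 to -0.43, adjusted p = 0.141), so it did not pass. With the slide as a block the adjusted p of Kif23 was 0.0182, and without the Sca-1+ sample of replicate 4 the difference was -1.26 (adjusted p = 0.0224). Kif14, a midbody kinesin, and Kif2b were not well above background on any array and were not tested.

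**Figure D3:**
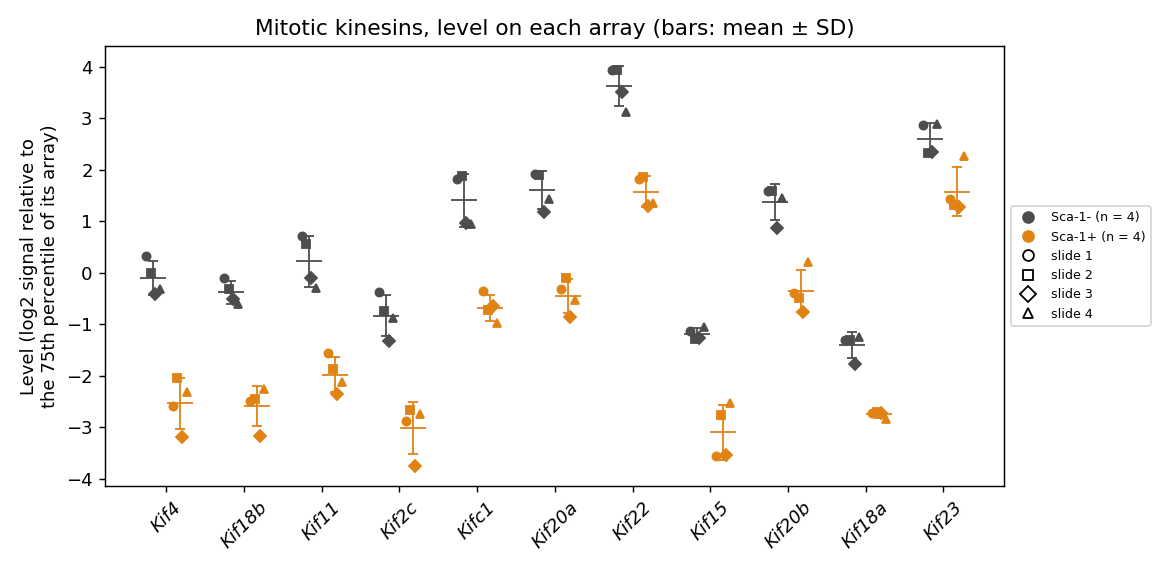
Level on each array (log2 signal relative to the 75th percentile of the array) of the 11 tested mitotic kinesins, with bars for the mean and SD of 4 Sca-1- and 4 Sca-1+ samples and a symbol for each slide. In all 11 genes the 4 Sca-1+ points lie below the 4 Sca-1- points, and in Kif23 the Sca-1+ sample of slide 4 stands at 2.28 above the other Sca-1+ samples at 1.27 to 1.44.

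The 10 called mitotic kinesins were lower in Sca-1+ samples on each of the 4 slides, and 9 of the 11 tested were well above background on all 8 arrays. All 10 passed with the slide as a block, with which 4.12% of all tested genes were called lower. Kif20b missed the threshold without the Sca-1- sample of replicate 1 (adjusted p = 0.0526) or of replicate 2 (adjusted p = 0.0530). Without both samples of replicate 1 or of replicate 2, 0 of the 10 passed, while their differences still ran from -2.57 to -1.32 and 1 and 2 genes of the whole table passed. Without both samples of replicate 3, 5 of the 10 passed.

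None of the 15 tested transport kinesins passed the test, against 1.71% of all tested genes called in either direction. A count of 0 in a class of this size is near that share and is by itself no result about these genes. They had differences of -0.27 to 0.57, of which 10 were above 0 and 5 below, and the smallest limma adjusted p was 0.590. For 11 of them the 95% interval lay within 1 log2 unit of 0, so that a change of over 2-fold is outside it, while the remaining 4 allow larger changes. Kif5a, Kif5b and Kif5c are heavy chains of conventional kinesin, which carries vesicles and mitochondria. Kif5b had levels of -1.12, -1.28, -0.74 and -1.70 in Sca-1- and -0.76, -1.10, -0.85 and -0.54 in Sca-1+ samples (0.40 ± 0.22 SE, adjusted p = 0.748), with groups that overlapped. Kif5a had levels of 3.50, 3.63, 3.38 and 3.94 against 3.75, 3.54, 3.71 and 4.16, a difference of 0.17 (95% interval -0.25 to 0.59). Kif5c was above background on 1 array of each group and was not tested.

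The kinesin-3 motors Kif1b, Kif1c, Kif13a, Kif13b and Kif16b carry vesicles and endosomes. Kif1b had levels of -0.67, -0.88, -0.52 and -0.08 against -0.14, -0.65, -0.08 and 0.96 (0.56 ± 0.34 SE, adjusted p = 0.798), and its groups overlapped. Kif1c, a Golgi and podosome motor, had levels of 1.25, 1.24, 0.96 and 1.33 against 1.04, 1.03, 0.98 and 1.13, a difference of -0.15 (95% interval -0.44 to 0.14). Of the other probes of Kif1c, one differed by -0.22 and another by 0.40, opposite in sign. Kif13a, Kif13b and Kif16b differed by 0.07, -0.06 and -0.0063. Kif1a, which carries synaptic vesicle precursors in neurons, differed by 0.00035, but its interval ran from -1.26 to 1.26 and overlaps those of the mitotic class.

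Kif3a, Kif3b and Kif3c form heterotrimeric kinesin-2, which works in cilia and in vesicle transport. They differed by 0.23, 0.13 and 0.18, and Kif17, a kinesin-2 homodimer, by -0.27. The second probe of Kif17, above background on 4 arrays, gave -1.79, and a probe of Kif3b above background on 5 arrays gave -0.37. Kif21b, a kinesin-4 motor that also limits microtubule growth, had levels of 4.19, 3.96, 3.75 and 4.17 against 3.99, 3.85, 3.94 and 4.18, a difference of -0.03 (95% interval -0.36 to 0.31). Of the minus-end motors Kifc2 had levels of 0.39, 0.67, 0.28 and 1.27 against 1.20, 0.95, 1.05 and 1.51 (0.52 ± 0.24 SE, adjusted p = 0.590), with the highest Sca-1- sample above all but 1 Sca-1+ sample. Kifc3, a motor of adherens junctions and the Golgi, had levels of -2.53, -1.81, -1.93 and -0.08 against -1.49, -1.52, -1.25 and 0.20. Both of its samples of replicate 4 stood above the rest, and its difference of 0.57 had an interval from -0.74 to 1.89.

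**Figure D4:**
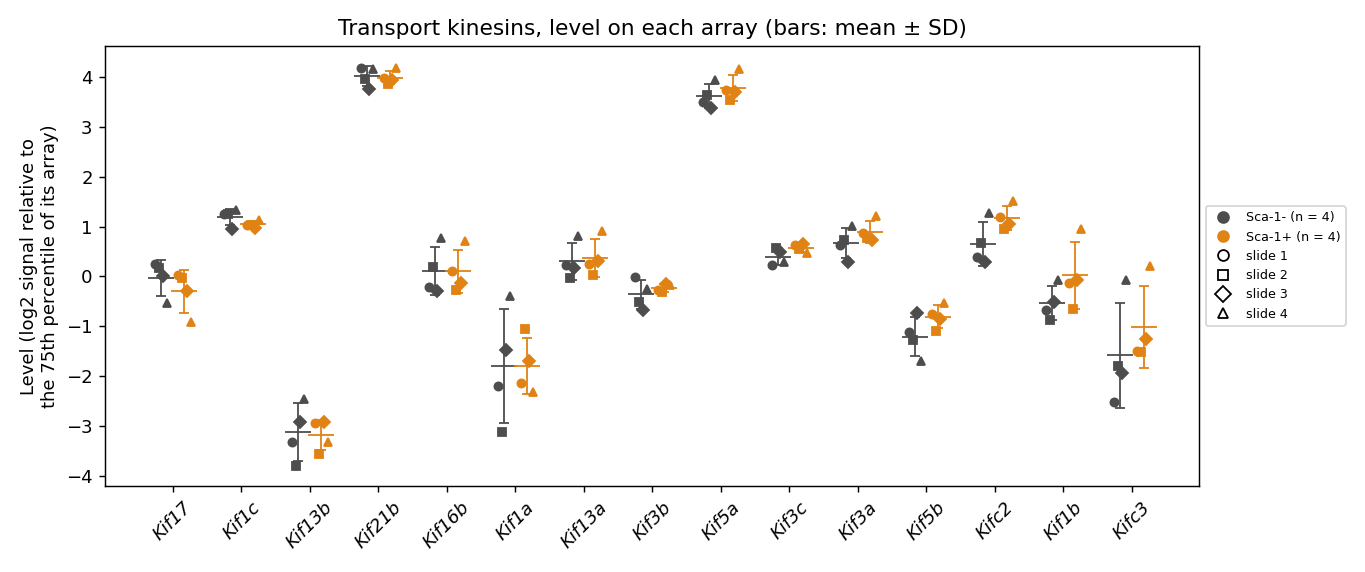
Level on each array (log2 signal relative to the 75th percentile of the array) of the 15 tested transport kinesins, with bars for the mean and SD of 4 Sca-1- and 4 Sca-1+ samples and a symbol for each slide. The Sca-1- and Sca-1+ points of each gene overlap, and in Kifc3 the pair from slide 4 lies above the others.

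Of the 11 other kinesins, 6 were tested and 0 passed, against 1.71% of all tested genes called in either direction. By limma 2 had an unadjusted p under 0.05, and the median difference of the 6 was -0.04. Kif9, a motor of the axoneme, had levels of -1.32, -0.97, -1.32 and -0.999 in Sca-1- and -0.67, -0.58, -0.66 and -0.56 in Sca-1+ samples, and its groups did not overlap. It differed by 0.53 ± 0.13 SE (1.45-fold higher, 95% interval 0.23 to 0.84, adjusted p = 0.138). In the fit that blocks on slide, which called 2.1% of all tested genes higher, its adjusted p was 0.0293. Its other 3 probes with signal above background on each array differed by 0.37, 0.43 and 0.29. Kif24, which takes apart centriolar microtubules and holds back cilium formation, had levels of -1.01, -1.30, -1.99 and -1.62 against -2.36, -2.37, -2.08 and -2.24, again without overlap (-0.78 ± 0.21 SE, adjusted p = 0.182). Kif2a, a microtubule depolymerase of the kinesin-13 group, had levels of 0.38, 0.73, 0.41 and 0.94 against 0.13, 0.19, 0.36 and 0.59 (-0.30 ± 0.18 SE, adjusted p = 0.798). Kif19a, Kif7 and Kif6 differed by 0.08, -0.17 and 0.09, the latter 2 with a standard error of 0.70. Kif12, Kif26a, Kif26b, Kif27 and Kif4b were not well above background on any array.

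Most of the proteins that work with mitotic kinesins fell. Of 18 tested, 15 fell and 0 rose, against 1.58% of all tested genes called lower, with a median difference of -1.94. The groups did not overlap for any of the 18, against 5.03% of all tested genes lower without overlap. The list was chosen with earlier results of these data known, and is not independent evidence of its direction. Cenpe, a kinetochore motor of kinesin type under another name, had levels of 3.57 ± 0.48 (SD, n = 4) and 1.53 ± 0.38 (SD, n = 4) and was 4.11-fold lower (-2.04 ± 0.28 SE, adjusted p = 0.00939). Tpx2, which brings Kif11 and Aurora A to spindle microtubules, fell by 2.20 and Nusap1, a spindle microtubule bundler, fell by 2.17 on the log2 scale (both adjusted p = 0.00503). The mitotic kinase Cdk1 and the cytokinesis activator Ect2 fell by 2.19 and 1.72 (both adjusted p = 0.00577), and Kpna2, an importin that holds spindle factors, fell by 1.55 (adjusted p = 0.00812). Hmmr (-0.80, adjusted p = 0.0731), Kifc5b and Cit (-1.92, adjusted p = 0.118) missed the threshold, and all 18 passed with the slide as a block, against 4.12% called lower. The count was 7 without Sca-1- replicate 1 or 2, 8 without Sca-1+ replicate 3, 0 without both samples of replicate 1 or 2, and 2 without both of replicate 3.

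Of 17 tested adaptors of transport kinesins, 0 passed and 1 had an unadjusted p under 0.05 by limma, and their median difference was 0.0064. With 1.71% of all tested genes called in either direction, a count of 0 in a list of this size is near the background and is no result about these genes. Klc1, a kinesin light chain, and Kifap3, the accessory subunit of kinesin-2, differed by -0.06 and -0.02. The smallest p-values were those of Mapk8ip3 (0.27, adjusted p = 0.521), a motor adaptor, and Klc2 (0.27, adjusted p = 0.684). With the slide as a block 1 gene, Klc3, was called lower. Of 24 dynein and dynactin genes tested, the minus-end transport machinery, 0 passed, again against 1.71% of all tested genes, and 3 had an unadjusted p under 0.05, with a median difference of -0.03. Nde1, a dynein regulator with a mitotic role, differed by -0.58 (adjusted p = 0.182, with 0.0426 in the blocked fit), and Hook2, a dynein adaptor, by 0.36 (adjusted p = 0.385).

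Among tubulins, the subunits of the track itself, 3 of 14 tested genes fell and 0 rose, against 1.58% of all tested genes called lower. Their median difference was -0.67, and 10 of the 14 differences were below 0. Tuba1b fell by 1.22 (adjusted p = 0.0239), Tubb4a by 1.02 (adjusted p = 0.0342) and Tubb5 by 1.07 (adjusted p = 0.0497) on the log2 scale. With the slide as a block 9 of 14 were called lower, against 4.12%. Each single sample left out, other than Sca-1- replicate 4, left 0 tubulins called, and probes of near-identical tubulin genes may share signal.

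**Figure D5:**
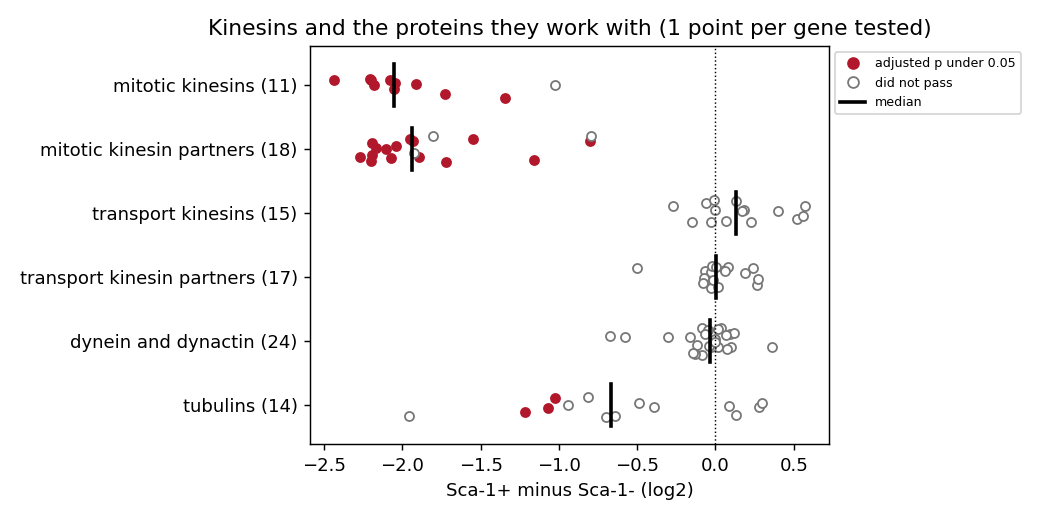
Log2 difference (Sca-1+ minus Sca-1-), 1 point per tested gene, of mitotic kinesins, their partners, transport kinesins, their partners, dynein and dynactin, and tubulins, filled where the adjusted p was under 0.05 and with a bar at the list median. From top to bottom the medians are -2.06, -1.94, 0.13, 0.0064, -0.03 and -0.67.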

How the data were processed

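RNA of 4 Sca-1- and 4 Sca-1+ pDC samples was measured on single-colour (Cy3) Agilent arrays. Per the labels, a low-input kit amplified and labelled 100 ng of RNA, and the descriptions also mention amplified polyA RNA. The sources used here do not say how both steps relate. Per the file headers, the authors extracted spot intensity with Feature Extraction 10.7.3.1, which corrected the background, and mm9 is the build of the probe positions. The authors also deposited a table of log2 values, used as an alternative, whose columns correlated with the log2 signal of their own arrays at 0.998 or above. Its column medians were 3.90 each and its quartiles nearly equal, as between-array quantile normalization leaves them, and how it was made is otherwise unknown.

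From the 62976 spots of each array (59305 non-control), 105 to 162 outlier spots were left out. Spots of a probe were averaged as log2 processed signal, and the 75th percentile of each array was subtracted. Probe names were updated through accession or symbol. Each gene was represented by the probe of highest mean signal and tested if well above background on at least 4 of 8 arrays. The test was limma's moderated fit (lmFit, eBayes, unpaired, two-sided; limma 3.58.1, R 4.3.3; version 1.17.8 of the data.table package), Benjamini-Hochberg adjusted over 19818 genes with a threshold of 0.05. A gene that passed is called. The fit was tested on simulated data. Promoters were searched and figures drawn in Python 3.11.15 with pandas 2.3.3, numpy 2.4.6 and matplotlib 3.10.9.

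Same-numbered samples lay on the same slide per the file headers, and their deviations from the group means correlated at 0.44, 0.43, 0.64 and 0.89 for replicates 1 to 4. The highest correlation of each Sca-1- sample with a Sca-1+ sample of another number was 0.19, 0.54, 0.43 and -0.47. Replicate 2 thus correlated more with another number than with its own. Each same-numbered correlation is above 0.1, so the slide as a block was an alternative, printed by gene or as a count. Other alternatives were normexp with an offset of 50, quantile normalization, scaling on detected probes, filters, probe averaging and samples left out. The kinesins and all lists were chosen with earlier results of these data known. Called kinesins are given in full. Of the others, those named are the 4 with the largest difference and the 4 with the highest mean per class, and of the partner lists Cenpe, Kifap3, Klc1, up to 6 passing members by adjusted p or, with none passing, the 2 with the smallest p. Members named outside that rule were picked after their values were seen. The exon or UTR position of the probes was not analysed here.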

Additional observations from a re-analysis of the deposited data

Results flagged for a closer look

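In 64 groups of 4 kinesin levels, 3 had a sample far from the other 3 by Dixon's test, which chance gives in about 1 in 20 groups. Kif18a stood at -1.76 in Sca-1- replicate 3, with the other Sca-1- samples at -1.30 to -1.24. Kif23 stood at 2.28 in Sca-1+ replicate 4, with the others at 1.27 to 1.44. Kifc3 stood at 0.20 in Sca-1+ replicate 4, with the others at -1.52 to -1.25. The arrays of replicate 4 were read with another Feature Extraction protocol than those of replicates 1 to 3, and its part in these levels was not tested.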

How the results depend on the processing

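The 10 kinesins called lower passed under the slide as a block, quantile normalization, scaling on detected probes, no filter, the mean over probes and the authors' series table. With normexp 9 of the 10 passed, and with a filter on all 8 arrays 8 were tested and passed. The mitotic minus transport gap was -1.51 with normexp, with which the median difference of the called mitotic kinesins was -1.43 in place of -2.07, and -2.43 to -2.03 under the other settings. With the slide as a block (pairing by replicate number) 1233 genes of the whole table passed against 339, and 1 other kinesin, 1 transport partner, 1 dynein gene and 9 tubulins passed. Without a filter 182 genes of the table and 0 tubulins passed. Leaving out samples, or both samples of a replicate number, gave 1 to 879 genes in the whole table, 0 to 11 kinesins, 0 to 11 mitotic kinesins, 0 to 17 mitotic partners and 0 to 7 tubulins, and 0 transport kinesins in every such run. The cause of these shifts was not tested.

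Signs reversed only for kinesins that were not called. Kif7 was 0.017 with normexp and 0.15 with the mean over probes. Kif1c was 0.0092 and Kif3b -0.12 with the mean over probes. Kif21b was 0.0092 with quantile normalization and 0.010 in the authors' table. Kif16b was 0.018 with normexp, 0.0024 with quantile normalization, 0.0028 with scaling on detected probes and 0.0020 in the authors' table, and Kif1a was -0.13 with normexp. Over samples left out the differences ran from -0.033 to 0.20 for Kif19a, -0.64 to 0.46 for Kif7, -0.55 to 0.53 for Kif6, -0.11 to 0.24 for Kif13a, -0.29 to 0.21 for Kif13b, -0.12 to 0.030 for Kif21b, -0.21 to 0.21 for Kif16b and -0.69 to 0.64 for Kif1a.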
